A study of Mus musculus with 9 samples.

Results

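The genes described here are 10 members of the NRF2 antioxidant response: Srxn1, Nfe2l2, Keap1, Hmox1, Nqo1, Gclc, Gclm, Slc7a11, Txnrd1 and Prdx1. They were taken by symbol from the 47643 genes in the deposited counts, and all 10 were matched and passed the filter on low counts. The set was chosen by the measured fall of Srxn1 with luteolin, and the question was whether the other 9 members shared that fall. Its values are therefore given as a description with no test, and only the other 9 were counted as called or not called. RNA came from bone marrow-derived mast cells (BMMCs) of C57BL/6 mice, grown in medium conditioned by WEHI-3 cells, which release the mast cell growth factor IL-3. Control cells were untreated, IgE+BSA cells were sensitized with DNP-specific IgE and challenged with DNP-BSA, and IgE+BSA+Luteolin cells also received the flavone luteolin, at 10 μM for 24 h per the sample labels. Each group had 3 libraries, and no source used here says whether they came from separate mice or cultures, so p-values measure the spread between these libraries. The order of luteolin and challenge differs between the descriptions in the study, and the age and number of mice were not given.

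NRF2, encoded by Nfe2l2, is a transcription factor that KEAP1 holds and hands to a CUL3 ubiquitin ligase for destruction. Oxidants and electrophiles modify cysteines of KEAP1, NRF2 then accumulates, pairs with a small MAF protein and binds antioxidant response elements of genes for glutathione synthesis, thioredoxin and peroxiredoxin recycling, and heme and quinone detoxification. Much of this control acts on the NRF2 protein, which RNA counts do not measure. Several of these genes also have other regulators: AP-1 dimers of FOS and JUN proteins bind a site that can lie inside an antioxidant response element, and ATF4, the transcription factor of the amino acid stress response, binds at Slc7a11.

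The stretch before the RefSeq start was searched in RefSeq promoter windows of GRCm38.p6 for 3 motifs on both strands: the antioxidant response element core TGACNNNGC, the AP-1 site TGACTCA and the ATF4 response element core TGATGNAA. Of the 10 members, 8 had a window of 250 bases, and Txnrd1 had 3 windows. Hmox1 and Gclc had none. Over all 32851 windows, 10.2% held the antioxidant response element core, 4.46% the AP-1 site and 3.45% the ATF4 core. Srxn1 is shown because the question turns on it, Prdx1 because it also holds 2 AP-1 matches but did not fall, and Slc7a11 because it fell and holds 2 matches to the ATF4 core. The sequences run 5′ to 3′ along the gene's strand and end at the base before the RefSeq transcript start, and capitals mark the matches. Gene coordinates given elsewhere are those of GENCODE, and distances are counted from the RefSeq start. The GENCODE bounds of Srxn1, Prdx1 and Slc7a11 begin inside these windows, that of Slc7a11 at the last base shown.
Srxn1, chr2:152105274-152105523, plus strand: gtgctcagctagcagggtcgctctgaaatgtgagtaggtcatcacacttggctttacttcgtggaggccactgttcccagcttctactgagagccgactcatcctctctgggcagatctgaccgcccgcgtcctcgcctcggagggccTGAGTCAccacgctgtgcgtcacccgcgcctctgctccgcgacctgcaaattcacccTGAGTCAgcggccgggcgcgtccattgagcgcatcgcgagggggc
Prdx1, chr4:116685349-116685598, plus strand: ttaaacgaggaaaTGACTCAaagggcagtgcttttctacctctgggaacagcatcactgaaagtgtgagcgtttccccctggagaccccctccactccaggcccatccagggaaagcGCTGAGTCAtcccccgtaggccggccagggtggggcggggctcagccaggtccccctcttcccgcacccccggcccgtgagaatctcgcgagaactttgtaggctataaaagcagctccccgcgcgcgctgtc
Slc7a11, chr3:50443614-50443863, minus strand: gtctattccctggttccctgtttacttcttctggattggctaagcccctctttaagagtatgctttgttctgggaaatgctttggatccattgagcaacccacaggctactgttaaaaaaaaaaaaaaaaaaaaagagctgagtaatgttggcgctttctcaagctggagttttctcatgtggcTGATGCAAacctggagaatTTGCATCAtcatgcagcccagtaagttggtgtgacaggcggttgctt
In Srxn1 the AP-1 matches lay 102 to 96 and 45 to 39 bases before the start, and no match to the antioxidant response element core was found in these 250 bases. In Prdx1 the AP-1 match 131 to 125 bases before the start lay inside the antioxidant response element core GCTGAGTCA, and the other AP-1 match lay 237 to 231 bases before it. Nfe2l2, Gclm and 1 of the 3 Txnrd1 windows held 1 antioxidant response element core each. The windows of Keap1 and Nqo1 held none of the 3 motifs. A match describes the letters only, and elements farther from the start were not searched. The windows shown were chosen with the changes known, and the part of any motif in those changes was not tested.

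Depth ranged from 9515004 counts in Control replicate 2 to 24605689, and 3 counts corresponded to 0.122 to 0.315 CPM, the count of a gene scaled to the size of its library, here with TMM factors that correct for differences in composition. All 10 mast cell markers examined, among them Kit, Fcer1a and Cpa3, were above the filter, with summed levels of 54352 to 83452 CPM in Control, 58385 to 65387 CPM in IgE+BSA and 70325 to 81533 CPM in IgE+BSA+Luteolin. Markers of neutrophils, 7 in number, summed to 216 CPM in Control replicate 1 but to 7.06 and 5.68 CPM in Control replicates 2 and 3, against 145 to 159 CPM in IgE+BSA and 168 to 199 CPM in IgE+BSA+Luteolin. S100a9, 1 of them, was at 105 CPM in Control replicate 1 and at most 0.967 CPM in the other Control libraries. Control replicate 1 was the library that stood apart, at a distance over scaled genes of 204 from its own group's other libraries and 133 from the IgE+BSA+Luteolin mean, so counts of members called against Control are given with and without it. Macrophage and monocyte markers, 9 in number, summed to 276 to 340 CPM, and Vsig4 had 0 counts in every library. Most of that sum was Adgre1, at 202 to 259 CPM, with Cd68 next at 30.2 to 50.8 CPM. Basophil markers, 3 in number and all above the filter, summed to 1651 to 1879 CPM in Control, 1446 to 1505 CPM in IgE+BSA and 1610 to 1755 CPM in IgE+BSA+Luteolin. Within these sums, the basophil marker Mcpt8 was at 432 CPM in Control replicate 1 and at 21.8 and 18.7 CPM in Control replicates 2 and 3, and the mast cell marker Mcpt4 was at 1750, 201 and 197 CPM. Prss34, Fcer1a, Cpa3, Tpsb2, Cma1 and Hdc were also higher in Control replicate 1 than in the other Control libraries. Cd200r3 (688, 1040 and 1020 CPM), Kit (1750, 2300 and 2480 CPM), Ms4a2, Gata2 and Mitf were lower there. Eosinophil markers, 3 in number, summed to 6.67 to 12.9, 10.3 to 12.3 and 6.09 to 7.49 CPM in Control, IgE+BSA and IgE+BSA+Luteolin. The mast cell, basophil and neutrophil sums were thus higher, and the eosinophil sum lower, in every IgE+BSA+Luteolin library than in every IgE+BSA library, although not each marker moved with its sum. Of the 10 mast cell markers, 6 were higher with luteolin by edgeR's quasi-likelihood test, Hdc and Mitf were lower, and Kit and Gata2 did not pass. Among the eosinophil markers, Siglecf was the one whose libraries were all lower, and those of Epx and Prg3 overlapped. Dendritic, lymphoid and erythroid markers summed to at most 0.677, 3.67 and 2.79 CPM, and Siglech and Cd3e had 0 counts throughout. The part of these markers in the results below was not tested.

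Of the 9 members tested between IgE+BSA+Luteolin and IgE+BSA, 5 were lower and 1 was higher at an adjusted p-value under 0.05, and 3 did not pass. Of all 11560 genes tested, 40.0% were called, 21.9% as lower and 18.1% as higher. Hmox1, Slc7a11 and Txnrd1 fell more than 2-fold, as did 5.23% of all genes tested, and 0 members rose that far, as did 0.381% of genes. Nfe2l2 and Gclc fell by less, Prdx1 rose, and Keap1, Gclm and Nqo1 did not pass. The median log2 fold change of the 9 was -0.40, beside 0.02 over all genes. In 7 of the 9 the libraries of the groups did not overlap, as in 50.3% of all genes tested, and in Keap1 the nearest libraries were level at the digits printed here. In bulk RNA, a change in the share of cells that express a gene and a change in RNA per cell cannot be told apart. The fall was therefore shared by 5 of 9 members, none of which fell as far as Srxn1. Scaling by library size alone gave 1767 lower and 3856 higher genes, and upper-quartile factors gave 2019 and 3267, beside 2527 and 2097 with TMM. The library size scaling moved the median over all genes to 0.13.

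**Figure D1:**
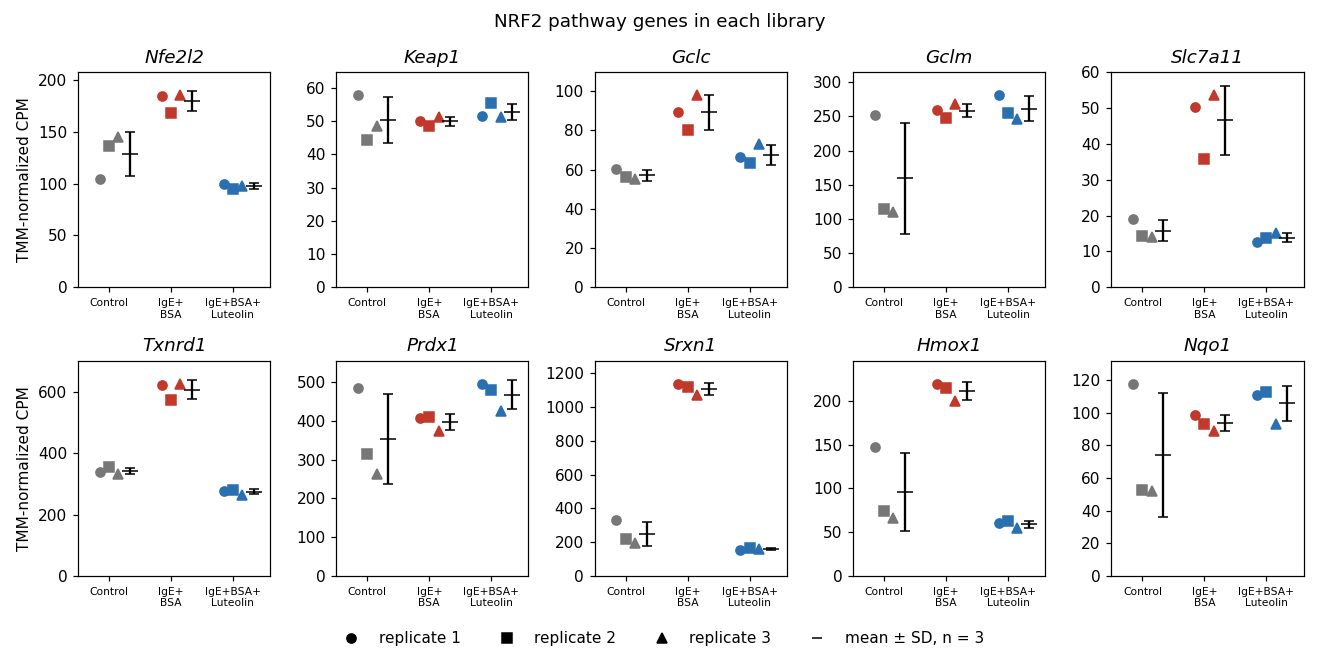
TMM-normalized CPM of each of the 10 genes in the 9 libraries, each panel on its own linear axis from 0, with the replicate number shown by the symbol and the mean ± SD (n = 3) beside it. Srxn1, Hmox1, Slc7a11 and Txnrd1 stood high in IgE+BSA alone, while Gclm, Prdx1 and Nqo1 in IgE+BSA lay near the level of Control replicate 1 or IgE+BSA+Luteolin.

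Srxn1 encodes sulfiredoxin, which repairs peroxiredoxins that peroxide has overoxidized. The gene (ENSMUSG00000032802, chromosome 2 of GRCm38, 152105516 to 152111376, plus strand) was at 330, 221 and 194 CPM in the Control libraries, 1138, 1118 and 1069 CPM in IgE+BSA and 155, 167 and 160 CPM in IgE+BSA+Luteolin. The 3 groups did not overlap, and every IgE+BSA+Luteolin library lay below every Control library. Srxn1 was 6.87-fold lower in IgE+BSA+Luteolin than in IgE+BSA, or -2.78 on the log2 scale with a standard error of 0.06. Of all genes tested, 0.571% had a lower log2 fold change. Between IgE+BSA and Control the log2 fold change was 2.15, and 2.37 without Control replicate 1. Between IgE+BSA+Luteolin and Control it was -0.63, and -0.37 without that library.

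Prdx1, a substrate of sulfiredoxin, encodes an abundant peroxidase that reduces hydrogen peroxide. The gene (chromosome 4, 116685544 to 116700822) was at 407, 410 and 374 CPM in IgE+BSA and at 496, 481 and 425 CPM in IgE+BSA+Luteolin. All 3 libraries with luteolin lay above all 3 without it, and the log2 fold change was 0.24 ± 0.06 (SE), at an adjusted p of 0.0074 by edgeR's quasi-likelihood test. The call was lost without IgE+BSA+Luteolin replicate 1 (log2 fold change 0.19, edgeR adjusted p = 0.0643) and when all 9 libraries entered the fit (edgeR adjusted p = 0.476). Control libraries were at 485, 314 and 263 CPM, so Control replicate 1 lay inside the range of IgE+BSA+Luteolin. Between IgE+BSA and Control the log2 fold change was 0.16, with a 95% confidence interval of -0.37 to 0.69 (edgeR adjusted p = 0.747), and it was 0.41 (edgeR adjusted p = 0.00123) against Control replicates 2 and 3, the libraries low in neutrophil markers, Mcpt8 and Mcpt4. The summed mast cell markers, 6 of 10 of them called higher, were also above the IgE+BSA libraries in all 3 libraries with luteolin, and their part in the rise of Prdx1 was not tested.

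Txnrd1 encodes the cytosolic thioredoxin reductase, which uses NADPH to keep thioredoxin, and through it peroxiredoxins, reduced. The gene (chromosome 10, 82833951 to 82897712) was at 622, 572 and 626 CPM in IgE+BSA and at 277, 281 and 265 CPM in IgE+BSA+Luteolin. The groups lay far apart, with a log2 fold change of -1.14 ± 0.06 (SE), at an adjusted p of 3.31e-11 by edgeR's quasi-likelihood test. In Control it was at 339, 353 and 332 CPM, with no sign of the spread that Control replicate 1 gave in Prdx1. It was higher in IgE+BSA than in Control by 0.83 on the log2 scale (edgeR adjusted p = 0.00573), a call lost without IgE+BSA replicate 1 or 3 (edgeR adjusted p = 0.0719 and 0.0622). In IgE+BSA+Luteolin it lay below every Control library, a log2 fold change of -0.32 that did not pass (edgeR adjusted p = 0.107), and that passed without Control replicate 1 (-0.33, edgeR adjusted p = 0.000411).

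Slc7a11 encodes the cystine carrier of the exchanger that brings in cystine for glutathione. The gene (chromosome 3, 49892526 to 50443614, minus strand) was at 50.3, 35.6 and 53.6 CPM in IgE+BSA, where the second library lay well below the others, and at 12.7, 13.6 and 15.1 CPM in IgE+BSA+Luteolin. Its log2 fold change was -1.75 ± 0.13 (SE), at an adjusted p of 9.17e-09 by edgeR's quasi-likelihood test. Control libraries were at 19.1, 14.3 and 14.0 CPM, so the IgE+BSA+Luteolin and Control libraries overlapped. The difference from Control was -0.20 on the log2 scale, with a 95% confidence interval of -0.59 to 0.19. IgE+BSA was above Control by 1.55 (edgeR adjusted p = 0.0101), a call lost without Control replicate 2 or 3 or IgE+BSA replicate 1 or 3, where the edgeR adjusted p was 0.0534 to 0.0726. It was 1.67 when Control replicate 1 was left out (edgeR adjusted p = 1.58e-06).

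Gclc and Gclm encode the catalytic and the modifier subunit of glutamate-cysteine ligase, the first enzyme of glutathione synthesis, of which Gclc passed the test with luteolin and Gclm did not. Gclc (chromosome 9, 77754535 to 77794485) was at 89.4, 80.3 and 98.0 CPM in IgE+BSA and at 66.2, 63.3 and 73.1 CPM in IgE+BSA+Luteolin, without overlap. The log2 fold change was -0.40 ± 0.08 (SE), at an adjusted p of 0.000586 by edgeR's quasi-likelihood test. Gclm (chromosome 3, 122245557 to 122270732) was at 260, 248 and 267 CPM in IgE+BSA and at 281, 255 and 247 CPM in IgE+BSA+Luteolin, and the groups overlapped. Its log2 fold change was 0.02, with a 95% confidence interval of -0.11 to 0.15, whose lower end lies above the estimate for Gclc. The difference between the subunits was not tested. In Control, Gclc was at 60.3, 56.1 and 55.1 CPM, below every library of the other groups. Gclm was at 253 CPM in Control replicate 1, within the range of IgE+BSA+Luteolin, and at 115 and 110 CPM in Control replicates 2 and 3. The log2 fold change of Gclc between IgE+BSA and Control was 0.64 (edgeR adjusted p = 0.0334), and 0.63 without Control replicate 1 (edgeR adjusted p = 5.7e-05). The call was lost in 8 of 15 alternatives, on leaving out any of the other 5 libraries (edgeR adjusted p = 0.0985 to 0.2) and with library size alone or upper-quartile factors as the scaling (edgeR adjusted p = 0.0636 and 0.0508) among them. That of Gclm was 0.69 (edgeR adjusted p = 0.278), and 1.15 without that library (edgeR adjusted p = 1.9e-08).

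Hmox1 encodes heme oxygenase 1, which breaks heme down to biliverdin, iron and carbon monoxide. The gene (chromosome 8, 75093621 to 75100589) was at 220, 214 and 200 CPM in IgE+BSA and at 60.4, 62.5 and 54.5 CPM in IgE+BSA+Luteolin. Its log2 fold change of -1.83 ± 0.07 (SE), with an adjusted p of 5.35e-13 by edgeR's quasi-likelihood test, was the lowest after that of Srxn1 among the 10 genes. Control libraries were at 147, 74.6 and 65.7 CPM, of which replicate 1 lay between the stimulated groups. IgE+BSA lay above every Control library, and the log2 fold change of 1.13 did not pass (edgeR adjusted p = 0.0959). With all 3 Control libraries kept, it passed by DESeq2 (adjusted p = 0.00603), with no filter on low counts (edgeR adjusted p = 0.00554) and with all 9 libraries in the fit (edgeR adjusted p = 0.0233). Without Control replicate 1 it was 1.55 and passed (edgeR adjusted p = 3.01e-09).

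Nqo1 encodes a quinone reductase and is often read as a standard NRF2 target. The gene (chromosome 8, 107388225 to 107403206, minus strand) was at 98.7, 93.3 and 89.1 CPM in IgE+BSA and at 111, 113 and 93.3 CPM in IgE+BSA+Luteolin, where the third library lay within the IgE+BSA range. The log2 fold change was 0.18 (95% confidence interval 0.02 to 0.33) and did not pass after adjustment (edgeR adjusted p = 0.0621). It passed in 5 of 15 alternatives, among them library size alone as the scaling (0.29, edgeR adjusted p = 0.00357), upper-quartile factors (0.25, edgeR adjusted p = 0.00938), no filter on low counts (edgeR adjusted p = 0.0195) and leaving out IgE+BSA+Luteolin replicate 3 (0.26, edgeR adjusted p = 0.00267). Control replicate 1 was at 118 CPM, above all other libraries, and Control replicates 2 and 3 were at 52.5 and 52.1 CPM, below all others. The log2 fold change between IgE+BSA and Control was 0.33 (edgeR adjusted p = 0.619), and 0.79 without Control replicate 1 (edgeR adjusted p = 1.87e-06).

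Of the regulators described above, Nfe2l2 fell with luteolin and Keap1 did not pass. Nfe2l2 (chromosome 2, 75675513 to 75704641, minus strand) was at 184, 168 and 186 CPM in IgE+BSA and at 100.0, 94.6 and 98.2 CPM in IgE+BSA+Luteolin. The log2 fold change was -0.88 ± 0.06 (SE), at an adjusted p of 2.58e-09 by edgeR's quasi-likelihood test. In Control it was at 105, 136 and 145 CPM, so the luteolin group lay below all Control libraries and IgE+BSA above them. Neither difference from Control passed (log2 fold changes of 0.48 for IgE+BSA, edgeR adjusted p = 0.114, and -0.41 for IgE+BSA+Luteolin, edgeR adjusted p = 0.159), although that of IgE+BSA passed with all 9 libraries in the fit (edgeR adjusted p = 0.0347). Without Control replicate 1 both passed, at 0.30 (edgeR adjusted p = 0.00349) and -0.54 (edgeR adjusted p = 3.9e-06). Keap1 (chromosome 9, 21229730 to 21239361, minus strand) was at 50.1, 48.6 and 51.3 CPM in IgE+BSA and at 51.5, 55.5 and 51.3 CPM in IgE+BSA+Luteolin. Its log2 fold change was 0.08, with a 95% confidence interval of -0.06 to 0.22. It passed only with library size alone as the scaling (0.19, edgeR adjusted p = 0.0252), where the median over all genes was 0.13. Control libraries were at 57.9, 44.3 and 48.6 CPM and spanned both other groups.

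**Figure D2:**
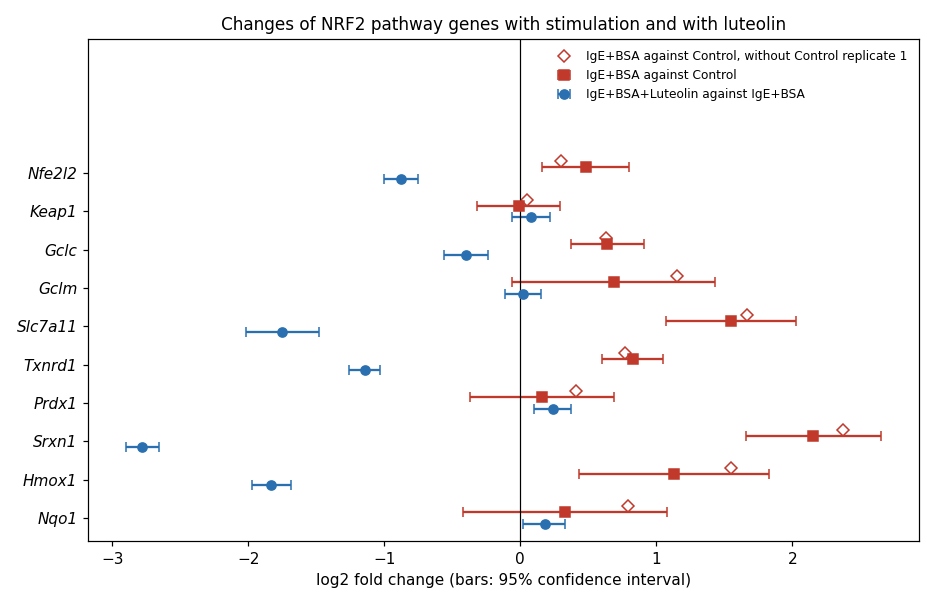
Log2 fold changes of the 10 genes between IgE+BSA+Luteolin and IgE+BSA (circles) and between IgE+BSA and Control (squares), with 95% confidence intervals, and the latter without Control replicate 1 (open diamonds). Srxn1, Hmox1, Slc7a11, Txnrd1, Nfe2l2 and Gclc lie to the right of 0 with stimulation and to the left with luteolin, and the comparisons share the IgE+BSA libraries.

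Between IgE+BSA and Control, 3 of the 9 members were higher (Slc7a11, Txnrd1 and Gclc), 6 did not pass and 0 were lower by edgeR's quasi-likelihood test. Of all genes tested, 3.27% were called, 2.25% as higher and 1.02% as lower. Slc7a11 was past 2-fold, as were 1.23% of genes on the higher and 0.458% on the lower side. Beside the losses given above for Gclc and Slc7a11, the call of Txnrd1 was lost without IgE+BSA replicate 1 or 3 (edgeR adjusted p = 0.0622 to 0.0719). Txnrd1 was at 0.77 without Control replicate 1 (edgeR adjusted p = 1.58e-06). No member was lower at an unadjusted p under 0.05 either, and DESeq2 and limma also called 0 as lower. Without Control replicate 1, 8 of the 9 members were higher and 45.0% of all genes tested were called, 22.6% as higher. Keap1 was the member that did not pass there (log2 fold change 0.05, edgeR adjusted p = 0.652). The Control libraries left in that fit were the ones low in neutrophil markers, Mcpt8 and Mcpt4, so in that fit stimulation and the difference in those markers cannot be told apart. Scaling by library size alone gave 295 lower and 173 higher genes in IgE+BSA and upper-quartile factors gave 181 and 199, beside 118 and 260 with TMM. The former moved the median over all genes from 0.02 to -0.15.

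Between IgE+BSA+Luteolin and Control, 0 of the 9 members passed by edgeR's quasi-likelihood test, where 3.04% of all genes tested were called, 2.75% as lower and 0.285% as higher, or 1.86% and 0.0952% past 2-fold. At an unadjusted p under 0.05, 3 were lower and 0 higher, with log2 fold changes of the 9 from -0.70 for Hmox1 to 0.71 for Gclm, and by DESeq2 1 was lower, Txnrd1, with 0 by limma. Without Control replicate 1, 3 were lower and 4 higher, with 60.0% of all genes tested called, 30.1% as lower and 29.9% as higher. Those lower were Nfe2l2, Txnrd1 and Hmox1, with log2 fold changes from -0.54 to -0.25. Those higher were Nqo1 at 1.01, Prdx1 at 0.69, Gclc at 0.27 and Gclm (edgeR adjusted p = 1.49e-09). Relative to the same Control libraries, Gclm was 2.3-fold and Nqo1 2.01-fold higher in IgE+BSA+Luteolin, and Hmox1 was 1.19-fold lower. Those Control libraries were the ones low in neutrophil markers, Mcpt8 and Mcpt4. In that fit, treatment and the difference in those markers cannot be told apart.

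**Figure D3:**
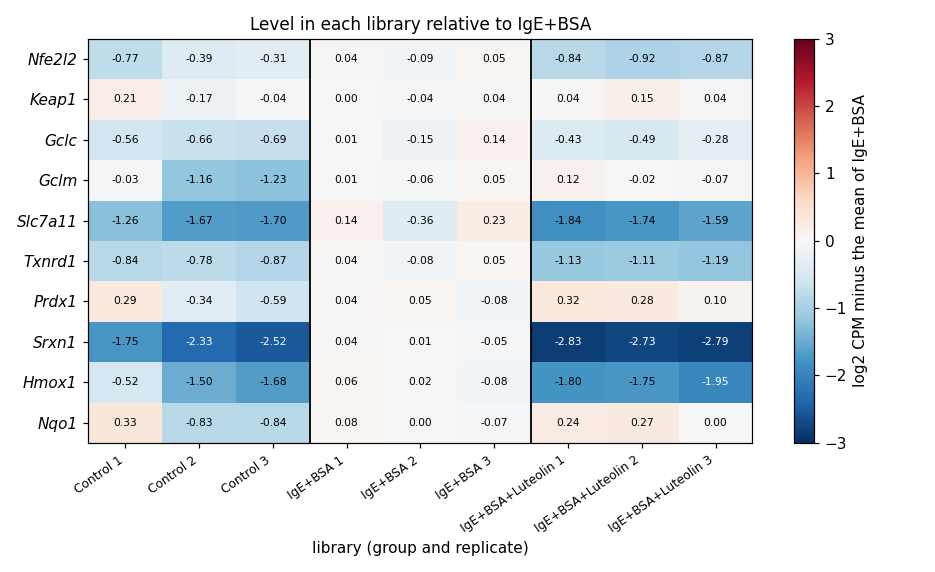
Level of each gene in each library as log2 CPM minus the mean of the IgE+BSA libraries, printed in each cell, with blue for lower and red for higher levels. Control replicate 1 was at -0.03 for Gclm and 0.33 for Nqo1, where Control replicates 2 and 3 were at -1.16 and -1.23 for Gclm and -0.83 and -0.84 for Nqo1.

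Levels between genes were compared as CPM per kilobase of merged exons. In IgE+BSA, Srxn1 was the most abundant of the 10 transcripts, at 393 ± 12.6 CPM per kilobase (SD, n = 3), followed by Prdx1 at 130 ± 6.46 and Hmox1 at 121 ± 5.74, whose library ranges overlapped. Txnrd1 followed at 85.6 ± 4.20, Nqo1 at 60.3 ± 3.10, Nfe2l2 at 47.3 ± 2.55, Gclm at 41.1 ± 1.58, Gclc at 23.7 ± 2.36, Keap1 at 10.6 ± 0.282 and Slc7a11 at 3.34 ± 0.688 CPM per kilobase, with no overlap between these neighbours. In IgE+BSA+Luteolin the order changed. Prdx1 was highest at 154 ± 12.2 CPM per kilobase, then Nqo1 at 68.0 ± 6.93 and Srxn1 at 57.1 ± 2.13, and Hmox1 was sixth, at 33.8 ± 2.37. Gclm, at 41.5 ± 2.87, and Txnrd1, at 38.7 ± 1.17, overlapped there. In Control, Prdx1 was at 116 ± 38.1 and Srxn1 at 87.9 ± 25.6 CPM per kilobase, with overlapping ranges, and Gclm, Nqo1 and Hmox1 had SDs of 50.7%, 51.0% and 46.6% of their means, with Control replicate 1 as the high library in all 3.

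By the root mean square difference of centred log2 CPM over the 9 libraries, the genes whose pattern was nearest to Srxn1 among 11559 were Marcksl1 (0.17), Dusp6 (0.21), Phlda1 (0.23), Zfp36 (0.24) and Jun (0.26). Dusp6 encodes a phosphatase of ERK kinases, and Zfp36 encodes tristetraprolin, which binds and destabilizes cytokine mRNAs. Dusp6 was at 63.9 ± 10.1 CPM in Control, 253 ± 10.9 in IgE+BSA and 31.0 ± 2.06 in IgE+BSA+Luteolin (SD, n = 3). None of the other 9 members was among these 5 genes. Hmox1 ranked 45 and Slc7a11 ranked 47, both with a difference of 0.47, then Txnrd1 at 191, Nfe2l2 at 403 and Gclc at 678. Gclm ranked 2657, Nqo1 5303, Keap1 5594 and Prdx1 6607. These differences describe the libraries and carry no test.

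A wider list of 91 genes of the antioxidant response was described beside the 10, and 76 of them passed the filter on low counts. Between IgE+BSA+Luteolin and IgE+BSA, 17 were lower, 24 were higher and 35 did not pass by edgeR's quasi-likelihood test, or 22.4% lower and 31.6% higher, beside 21.9% and 18.1% of all genes tested. The count higher was 1 with all 9 libraries in the fit, and 14 or 15 without IgE+BSA+Luteolin replicate 1 or 2. Their median log2 fold change was 0.09. Past 2-fold, 6 were lower and 0 higher, beside 5.23% and 0.381% of all genes tested. Among 12 genes for partners, repressors and degradation of NRF2, 7 were lower and 3 higher, or 58.3% and 25.0%. Maff, a small MAF partner, fell from 30.2 ± 1.64 CPM to 2.99 ± 0.223 CPM (SD, n = 3), a log2 fold change of -3.33 ± 0.12 (SE, edgeR adjusted p = 5.81e-13). Mafk, another small MAF, fell from 71.4 ± 3.20 to 33.3 ± 1.07 CPM (log2 fold change -1.10, edgeR adjusted p = 9.79e-10). Palb2, whose protein binds KEAP1 as well as BRCA proteins, rose by 0.41 on the log2 scale (edgeR adjusted p = 0.0418), a call kept in 7 of 15 alternatives and lost on leaving out any 1 library.

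In glutathione use and recycling, 3 of 12 genes were lower and 2 higher, or 25.0% and 16.7%, beside 21.9% and 18.1% of all genes tested. Gss, which encodes glutathione synthetase, the enzyme after glutamate-cysteine ligase, was at 139, 116 and 171 CPM in IgE+BSA and at 57.2, 51.8 and 55.7 CPM in IgE+BSA+Luteolin (log2 fold change -1.37, edgeR adjusted p = 1.22e-08). It was at 65.4, 68.0 and 59.3 CPM in Control, and higher in IgE+BSA by 1.14 on the log2 scale (edgeR adjusted p = 0.012). Chac1 encodes an enzyme that breaks glutathione down and is an ATF4 target, and it fell from 54.5 ± 3.75 to 1.81 ± 0.282 CPM (SD, n = 3), a log2 fold change of -4.90 (edgeR adjusted p = 6.76e-15). Glrx2, a mitochondrial glutaredoxin, rose by 0.41 (edgeR adjusted p = 0.00332), a call kept in all 15 alternatives. The call of Gss between IgE+BSA and Control was lost without Control replicate 2 or 3 or IgE+BSA replicate 1 or 3 (edgeR adjusted p = 0.053 to 0.0801).

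Among 13 genes for thioredoxins, peroxiredoxins and sestrins, 6 were higher and 2 lower, or 46.2% and 15.4% beside 18.1% and 21.9% of all genes tested. Prdx2 rose from 82.8 ± 8.97 to 107 ± 7.22 CPM (SD, n = 3), a log2 fold change of 0.38 (edgeR adjusted p = 9.58e-04) that did not pass with all 9 libraries in the fit (edgeR adjusted p = 0.138). Sesn2, a sestrin induced by stress, fell by 1.30 on the log2 scale (edgeR adjusted p = 3.28e-11). Txnip, which encodes an inhibitor of thioredoxin, was at 526, 748 and 880 CPM in Control, 334, 359 and 320 CPM in IgE+BSA and 239, 208 and 210 CPM in IgE+BSA+Luteolin, and the 3 groups did not overlap. Its log2 fold changes were -1.09 (edgeR adjusted p = 0.0277) between IgE+BSA and Control and -0.62 (edgeR adjusted p = 1.09e-06) between IgE+BSA+Luteolin and IgE+BSA. The first of these was lost on leaving out any library but Control replicate 1 (edgeR adjusted p = 0.0783 to 0.169).

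In conjugation and export, 9 of 22 genes were higher and 3 lower, or 40.9% and 13.6% beside 18.1% and 21.9% of all genes tested. Mgst3, a microsomal glutathione S-transferase, had the largest rise, 0.65 on the log2 scale (edgeR adjusted p = 0.0301) from 3.45 ± 0.315 CPM in IgE+BSA (SD, n = 3), although its libraries overlapped and the call was lost without IgE+BSA replicate 1 or 2 or IgE+BSA+Luteolin replicate 1 or 2 (edgeR adjusted p = 0.066 to 0.185). Osgin1, a growth inhibitor induced by oxidative stress, was at 163, 199 and 147 CPM in IgE+BSA and at 33.3, 32.9 and 34.8 CPM in IgE+BSA+Luteolin, below the 89.4 to 186 CPM of Control. Its log2 fold changes were -2.33 against IgE+BSA (edgeR adjusted p = 1.98e-12) and -1.93 against Control (edgeR adjusted p = 0.016). Between IgE+BSA and Control it did not pass (0.40, edgeR adjusted p = 0.477), and passed without Control replicate 1 (0.73, edgeR adjusted p = 0.000168). In heme and iron handling, 2 of 7 genes were lower and 2 higher, or 28.6% each way, with Fth1, the ferritin heavy chain, at -0.52 (edgeR adjusted p = 5.43e-07) and Hmox2, the constitutive heme oxygenase, at 0.47 (edgeR adjusted p = 4.77e-04). Of the 7 genes of NADPH supply, 1 rose, or 14.3%, Taldo1 at 0.27 (edgeR adjusted p = 0.00593), and of 3 superoxide dismutase and catalase genes 1 rose, or 33.3%, Sod2 at 0.26 (edgeR adjusted p = 0.00544). With all 9 libraries in the fit, Mgst3, Hmox2, Taldo1 and Sod2 did not pass (edgeR adjusted p = 0.115, 0.0612, 0.47 and 0.439), and Taldo1 did not without IgE+BSA+Luteolin replicate 1 (edgeR adjusted p = 0.0523).

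**Figure D4:**
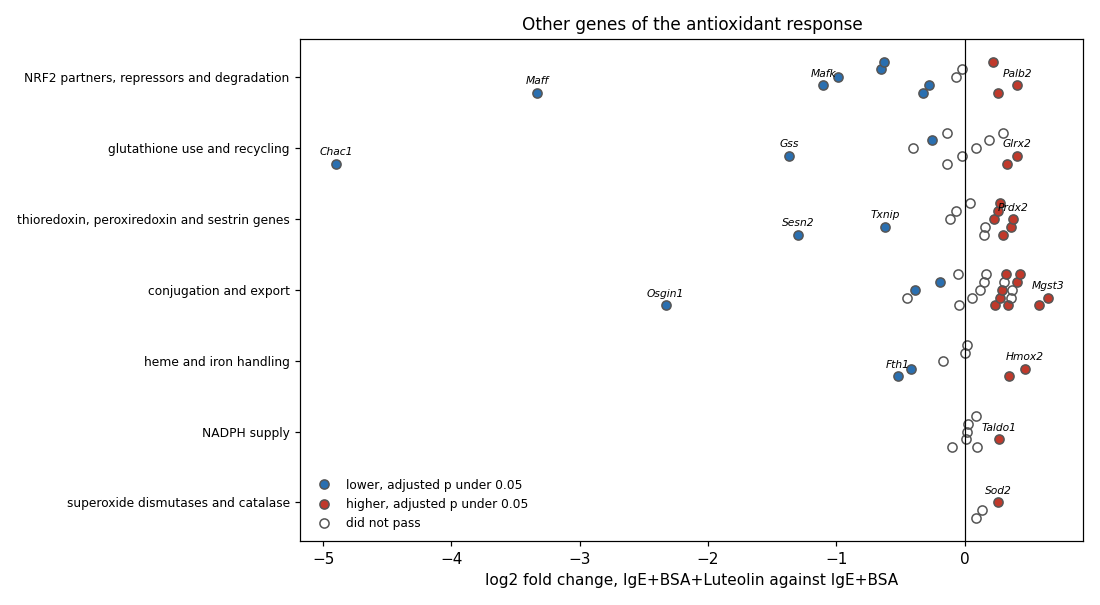
Log2 fold change between IgE+BSA+Luteolin and IgE+BSA of each of the 76 wider genes tested, by group, filled where the adjusted p-value was under 0.05. The 6 genes past 2-fold, Chac1, Maff, Osgin1, Gss, Sesn2 and Mafk, are all on the lower side, and the highest, Mgst3, is at 0.65. Of all genes tested, 5.23% were past 2-fold on the lower and 0.381% on the higher side.

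Between IgE+BSA and Control, 6 of the 76 wider genes were higher and 1 was lower by edgeR's quasi-likelihood test (9.21% called, beside 3.27% of all genes). Between IgE+BSA+Luteolin and Control, 5 were lower and 0 higher, namely Chac1, Maff, Mafk, Osgin1 and Txnip, or 6.58% lower beside 2.75% of all genes lower and 0.285% higher. Each of these 5 calls was lost on leaving out any 1 IgE+BSA+Luteolin library (edgeR adjusted p = 0.0718 to 0.222), those of Chac1, Maff and Mafk also without Control replicate 2 or 3, that of Txnip without Control replicate 2 and that of Osgin1 without Control replicate 3. Over 15 alternatives, Mafk kept its call in 8, Maff in 9, Chac1 in 10, and Txnip and Osgin1 in 11. At an unadjusted p under 0.05, 5 were higher in that comparison, and DESeq2 called 1 as higher and limma 0. Without Control replicate 1 the counts were 35 higher and 13 lower for IgE+BSA against Control, and 38 higher and 18 lower for IgE+BSA+Luteolin against Control. Of all genes, 22.6% were higher and 22.4% lower in the former and 29.9% and 30.1% in the latter, and the Control libraries in these fits were those low in neutrophil markers, Mcpt8 and Mcpt4. Of the ATF4 response genes examined, 7 of 8 were lower in IgE+BSA+Luteolin than in IgE+BSA, beside 21.9% of all genes tested. Those 7 include Chac1 and Sesn2, already counted among the wider genes, and Atf4 itself. Atf4 went from 770, 780 and 743 CPM to 476, 475 and 429 CPM (log2 fold change -0.73, edgeR adjusted p = 1.98e-08). All 7 AP-1 subunit genes examined were lower, where 21.9% of all genes tested were. Jun went from 1066, 1377 and 1086 CPM to 155, 130 and 144 CPM (log2 fold change -3.04, edgeR adjusted p = 7.77e-14), and Fosl1 from 8.09, 6.20 and 8.49 CPM to 0.373, 0.729 and 0.774 CPM (log2 fold change -3.58, edgeR adjusted p = 1.77e-08).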

How the data were processed

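RNA of BMMCs was sequenced from stranded mRNA libraries in 9 samples, 3 per group. The authors filtered reads with HTStream, aligned them with STAR 2.7.0f to mm10 and deposited whole-number counts for each Ensembl gene, without scaling or a filter. Annotation release, strand setting and handling of reads that match several places are not given in the sources used here, so Keap1, Gclm, Slc7a11 and Nfe2l2, which overlap other genes with or without counts of their own, carry that uncertainty. Txnrd1 overlaps Eid3 on its own strand and 2 opposite-strand genes in GENCODE, none of which has a row in the counts, so reads from them cannot be told apart from those of Txnrd1. Groups came from the sample titles. Symbols, positions and merged exon lengths came from GENCODE on GRCm38, which matched 47224 of 47643 genes.

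Genes with a median CPM above 1 over the 9 libraries entered edgeR's quasi-likelihood test (R 4.3.3, edgeR 4.0.16) with TMM factors, two-sided, with only the 6 libraries being compared, and p-values were adjusted by Benjamini-Hochberg over 11560 genes, with a threshold of 0.05. Standard errors are the log2 fold change divided by the root of the F statistic, and the level that 3 counts give covers counting error only. The method was tested on simulated data in which all libraries had the same small spread. That test does not cover a group with a library that stands apart, as in Control. Log2 CPM used a prior count of 2. Counts of replicates differed by a chi-square of at least 4.05 per degree of freedom, so no library was counted as a repeat of another.

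The members and lists were chosen with earlier results of these data known, so no list received a test of its own. The genes named are the 10 members, in each wider list the largest rise and fall past the threshold between IgE+BSA+Luteolin and IgE+BSA and any gene past it and 2-fold in any comparison, Atf4, Chac1, Jun and Fosl1, and the 5 genes nearest to Srxn1. Alternatives were DESeq2 1.42.0, limma 3.58.1, other scalings and filters, all libraries in the fit, the replicate block, a threshold of 0.01 and each library left out in turn.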

Additional observations from a re-analysis of the deposited data

How the results depend on the processing

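Between IgE+BSA+Luteolin and IgE+BSA the count of 5 lower members was 5 under every alternative run, while the count of 1 higher member was 3 with library size alone, 2 with upper-quartile factors, with no filter on low counts and with the replicate block, and 0 with all 9 libraries in the fit, and 0 to 2 with each library left out. Of 135 results for single members in this comparison, 127 kept their side of the threshold, 6 newly passed and 2 no longer did. The log2 fold change of Gclm, not called, ran from -0.05 to 0.13. Genes called numbered 4624, against 1093 with all 9 libraries in the fit and 3242 to 5082 with each library left out. Wider genes lower numbered 17, against 11 with all 9 libraries and 16 to 18 with each library left out, and those higher 24, against 1 with all 9 libraries, 15 at a threshold of 0.01 and 14 to 27 with each library left out, the lowest being 14 and 15 without IgE+BSA+Luteolin replicate 1 or 2.

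Between IgE+BSA and Control, 378 genes were called, against 1227 by DESeq2, 618 with no filter, 1105 with all 9 libraries in the fit, 144 with the replicate block and 90 to 5207 with each library left out. Higher members numbered 3, against 5 with all 9 libraries, 4 by DESeq2 and with no filter, 2 with library size alone and with upper-quartile factors, 1 with the replicate block and at a threshold of 0.01, and 0 to 8 with each library left out, the latter without Control replicate 1. Lower members numbered 0 under every alternative run. Wider genes higher numbered 6, against 2 at the threshold of 0.01 and 2 to 35 with each library left out. Those lower numbered 1, against 4 by DESeq2, 3 with library size alone and with all 9 libraries, 2 by limma, upper-quartile factors, RLE factors, no filter and filterByExpr, 0 with the replicate block and at 0.01, and 0 to 13 with each library left out. Among single members, 111 of 135 results kept their side of the threshold, 9 newly passed and 15 no longer did, Gclc in 8 of them.

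Between IgE+BSA+Luteolin and Control, 351 genes were called, against 1379 by DESeq2, 811 with no filter, 1251 with all 9 libraries, 212 with the replicate block and 2 to 6931 with each library left out. Lower members numbered 0, against 1 by DESeq2 and with all 9 libraries and 0 to 3 with each library left out, and higher members 0, against 0 to 4. Wider genes lower numbered 5, against 3 with the replicate block, 0 at 0.01 and 0 to 18 with each library left out, and those higher 0, against 1 by DESeq2 and with all 9 libraries and 0 to 38. Without Control replicate 1, the highest counts were reached in both comparisons with Control. The cause of these differences was not tested. No source used here says that same-numbered libraries belong together. Correlations of their deviations were -0.024, 0.175 and 0.283 between IgE+BSA and IgE+BSA+Luteolin and -0.042, -0.255 and 0.24 between Control and IgE+BSA, so not every pair was above 0.1, and IgE+BSA+Luteolin replicate 1 correlated best with IgE+BSA replicate 2 (0.149). The replicate block moved the genes called between those stimulated groups from 4624 to 5582, Nqo1 passed there (edgeR adjusted p = 0.00839), and between IgE+BSA and Control Gclc and Txnrd1 did not (edgeR adjusted p = 0.119 and 0.0509). No alternative turned the direction of a called member. Among the wider genes named, Mafk between IgE+BSA and Control went from 0.04 on the log2 scale, not called, to -0.22 without Control replicate 1 (edgeR adjusted p = 0.0249), with values from -0.22 to 0.15 over the libraries left out. The calls of Nqo1 and Prdx1 between IgE+BSA+Luteolin and IgE+BSA, at log2 fold changes of 0.18 and 0.24, changed with the settings. What size of change 3 libraries a group could detect was not tested.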
